A study of Mus musculus with 6 samples.

Results

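The inflammasome and NOD sensor genes were examined in cultured mouse T cells of 2 kinds on 6 expression arrays. The group consists of Casp1, Casp4, Pycard, Nlrp3, Nlrc4, Nod1, Nod2, Gsdmd, Il1b and Il18, and a probe set entered it where the annotation of the array gave it 1 of these 10 symbols and no other. This gave 10 probe sets of 8 genes, out of 34945 probe sets of 18193 genes with a single symbol. Nlrc4 and Nod2 had no such probe set and were not analysed here. Of the arrays, 3 held RNA of CD8aa Tregs (titled 2D11, replicates 1, 2 and 4) and 3 held RNA of OT-1 CD8aa+TCRab+ T cells (titled OvacD8, replicates 1, 2 and 3). The series describes the CD8aa Tregs as regulatory T cells that see their antigen on Qa-1, a non-classical MHC molecule; OT-1 cells bear a transgenic receptor that recognises a peptide of ovalbumin. The labels call every sample a T cell clone, and both kinds were grown in IL-2 together with antigen-presenting cells and the antigen of each. Each group may therefore be repeats of 1 clone, age and sex of the mice are not in the labels, and the spread behind the p-values, that between these samples, may be technical.

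Inflammasomes are protein platforms of the cytosol that assemble when a sensor meets a danger or microbial signal. A sensor such as NLRP3 recruits the adaptor ASC, the product of Pycard, which in turn gathers and activates caspase-1; caspase-4 (long called caspase-11 in the mouse) senses lipopolysaccharide in the cytosol by itself. The caspases cut gasdermin D, which forms pores in the plasma membrane, and caspase-1 matures IL-1 beta and IL-18. NOD1 and NOD2 are related sensors of bacterial peptidoglycan that signal through the kinase RIPK2 to NF-kB instead of to a caspase. The system is best known in macrophages and other myeloid cells, and T cells meet it chiefly through the receptors for IL-1 and IL-18.

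The stretches of 250 bases before the transcription start of the 5 genes whose values the results turn on are given 5′ to 3′ on the strand of the gene, from RefSeq, build GRCm38.p6. They are shown because Casp1 and Casp4 lie next to each other on chromosome 9 and stood higher in CD8aa Tregs on all arrays, while the 3 others stood higher in OT-1 cells on some or all arrays. Capitals mark matches to the NF-kB consensus or to the PU.1 core.
Casp1, chr9:5298267-5298516, strand +: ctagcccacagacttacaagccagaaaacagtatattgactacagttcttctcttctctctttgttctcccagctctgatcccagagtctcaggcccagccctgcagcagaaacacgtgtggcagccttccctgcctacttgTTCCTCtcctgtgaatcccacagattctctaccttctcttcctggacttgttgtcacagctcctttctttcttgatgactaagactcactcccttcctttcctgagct
Casp4, chr9:5308599-5308848, strand +: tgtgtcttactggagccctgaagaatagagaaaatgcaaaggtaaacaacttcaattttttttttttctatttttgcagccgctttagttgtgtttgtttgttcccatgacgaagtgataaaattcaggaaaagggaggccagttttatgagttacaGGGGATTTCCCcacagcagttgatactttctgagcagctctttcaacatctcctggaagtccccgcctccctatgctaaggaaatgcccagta
Pycard, chr7:127993868-127994117, strand -: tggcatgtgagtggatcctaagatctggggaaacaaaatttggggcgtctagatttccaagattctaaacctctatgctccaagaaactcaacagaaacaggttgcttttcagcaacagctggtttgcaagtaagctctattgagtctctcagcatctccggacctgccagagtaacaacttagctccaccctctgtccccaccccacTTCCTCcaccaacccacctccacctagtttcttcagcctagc
Il18, chr9:50554450-50554699, strand +: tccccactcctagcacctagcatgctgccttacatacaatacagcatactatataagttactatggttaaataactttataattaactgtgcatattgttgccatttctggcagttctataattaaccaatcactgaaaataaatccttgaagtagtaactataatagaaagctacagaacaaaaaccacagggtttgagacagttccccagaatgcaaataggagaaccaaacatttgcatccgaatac
Nod1, chr6:54972613-54972862, strand -: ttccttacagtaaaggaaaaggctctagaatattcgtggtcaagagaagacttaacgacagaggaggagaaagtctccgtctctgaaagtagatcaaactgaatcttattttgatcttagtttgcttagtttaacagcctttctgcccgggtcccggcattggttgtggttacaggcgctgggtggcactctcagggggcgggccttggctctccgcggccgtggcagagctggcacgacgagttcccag
Nod1 and Casp4 have 2 starts each in the RefSeq table, and the first is shown. These stretches were searched on both strands for 5 motifs: the NF-kB consensus, the interferon-stimulated response element ISRE, the STAT site TTCNNNGAA, the AP-1 site TGANTCA and the PU.1 core GAGGAA. The Casp4 stretch held 2 overlapping NF-kB matches, the first of them starting 93 bases before the start of transcription, and 3.90% of 32851 such stretches in the table held at least 1. Casp1 and Pycard held 1 PU.1 core each, 108 and 42 bases before the start, which 23.3% of all stretches held. None of the 5 stretches held ISRE (2.98% of all), the STAT site (7.02%) or the AP-1 site (6.75%). A match is a description of letters and no binding was measured here.

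The values are log2 values that had been centred, so that the median of each probe set over the 6 arrays is 0. They give differences between arrays and no level: bright genes cannot be told from genes at background, and levels cannot be compared between genes. One consequence is that the 2 arrays in the middle of a probe set always carry the same value with opposite signs. As context for the arrays, OT-1 replicates 2 and 3 were more alike (r = 0.855 over the 29526 probe sets with a span of 0.1 or more, which are not independent of each other) than they were to OT-1 replicate 1 (0.298 for replicate 2 and 0.353 for replicate 3). The poly-A spike-in controls, bacterial transcripts added to follow labelling, averaged -0.09 to 0.73 on the CD8aa Treg arrays and 0.44 on OT-1 replicate 1, and -1.41 and -2.13 on OT-1 replicates 2 and 3. With a term for this split in the fit, the group difference is the mean of the CD8aa Treg arrays minus OT-1 replicate 1, so the OT-1 side is 1 array that is assumed to vary as the others do; such values are given as a comparison with that array. Of 20 measured myeloid marker genes, 9 had a probe set on which OT-1 replicate 1 lay at least 1 above all other arrays. Among these 9 were Tyrobp (3.33 on that array, -0.02 to 0.01 on the others) and Fcgr3 (3.35, against -0.12 to 0.05). The remaining genes had none, among them Itgam (0.01 on that array) and S100a8 (0.03), and Cst3 was lowest there (-0.41). Over all probe sets 0.224% lay so, a share of probe sets and not of genes. The mean over the 29 myeloid probe sets was -0.21 to -0.07 on the CD8aa Treg arrays, 1.19 on OT-1 replicate 1, and 0.05 and 0.08 on OT-1 replicates 2 and 3. In the myeloid list 1 gene passed, Ms4a6d, whose probe set 1419599_s_at differed by -4.57 ± 0.21 (adjusted p = 0.00132). Markers of B cells (7 genes), dendritic cells (6) and erythroid cells (2) had no probe set of that kind. Of 10 T cell markers, 1 had a probe set that was higher in CD8aa Tregs and 2 had one that was lower. The higher one was Cd8a, at 0.85 ± 0.07 on 1444078_at (SE, limma adjusted p = 0.00814). None of the other Cd8a probe sets passed, and they differed by -2.40 (1440811_x_at) to 0.25 (1425335_at). Cd8b1, encoding the beta chain of CD8, differed by -2.36 ± 0.11 and passed (limma adjusted p = 0.00142). Cd247, the CD3 zeta chain, passed on 2 of its 4 probe sets, at -1.09 and -1.24 (adjusted p = 0.00402 and 0.00399). The CD3 chains Cd3d (-0.73; adjusted p = 0.0978), Cd3e (0.08; 0.798) and Cd3g (0.29; 0.723) did not pass. Since levels were removed by centring, no marker can be called absent. Fewer cells of a type and less RNA per cell cannot be told apart in bulk samples.

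Caspase-1 was the member that stood higher in CD8aa Tregs and passed the test, and NOD1 the member that was lower and passed. Casp1 was 2.52-fold higher in CD8aa Tregs than in OT-1 cells, and Nod1 1.59-fold lower. Each probe set was compared with limma over all 45037 probe sets that are no array controls, and passed at a Benjamini-Hochberg adjusted p under 0.05. Of the 10 member probe sets 2 passed, 1 higher and 1 lower. Over all probe sets 4.06% passed, 2.00% in the higher direction and 2.05% in the lower. An unadjusted limma p under 0.05 was found for 4 of the 10 and for 7224 of all 45037. There was no overlap of the groups on 4 of the 10, those of Casp1, Casp4, Nod1 and 1 of the 3 of Pycard, against 20.3% of all probe sets. The median difference was -0.01 over the members and 0.01 over all probe sets. With so few members, these shares describe the list and are no test of it.

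**Figure D1:**
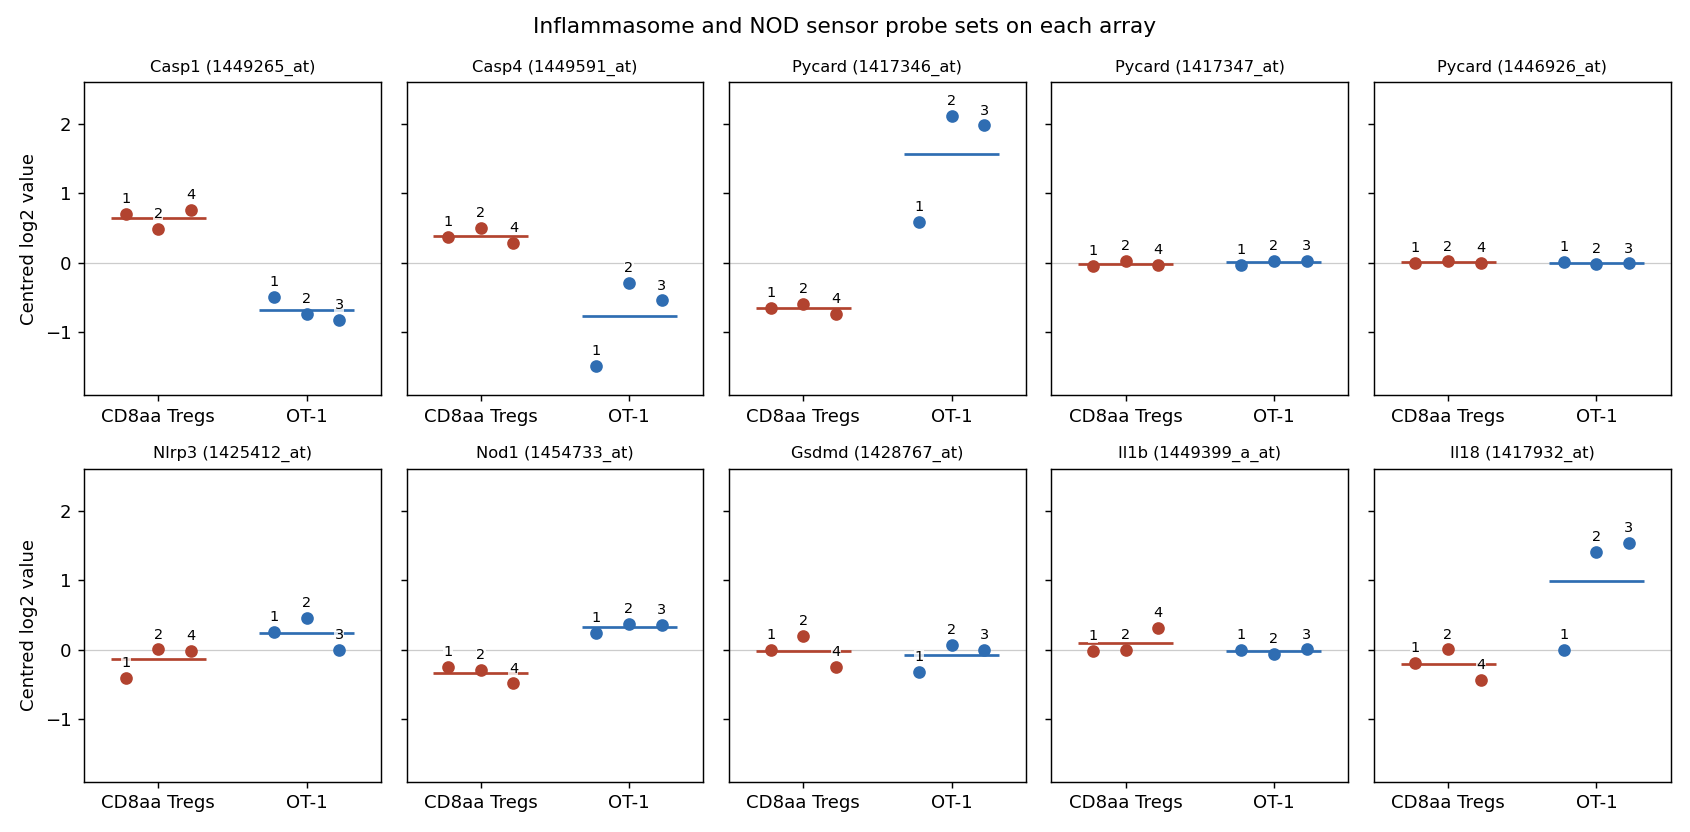
Centred log2 value (vertical axis) of each member probe set on each array, with CD8aa Tregs (replicates 1, 2 and 4) left of OT-1 (replicates 1, 2 and 3); points are arrays, numbers are replicates and lines are group means. Casp1, Casp4, Nod1 and Pycard 1417346_at have groups that do not overlap, and OT-1 replicate 1 lies apart from OT-1 replicates 2 and 3 for Pycard 1417346_at, Il18 and Casp4.

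Among the sensors, Nod1 (probe set 1454733_at) had centred log2 values of -0.24, -0.29 and -0.48 in CD8aa Treg replicates 1, 2 and 4, against 0.24, 0.37 and 0.36 in OT-1 replicates 1, 2 and 3. Every CD8aa Treg array lay below every OT-1 array, and OT-1 replicate 1 stood with the other OT-1 arrays. The log2 difference was -0.67 ± 0.08 (SE, n = 3 per group; 95% interval -0.86 to -0.47; limma adjusted p = 0.0185). Nod1 did not pass without CD8aa Treg replicate 2 (adjusted p = 0.0717), without OT-1 replicate 2 (0.0905) or without OT-1 replicate 3 (0.0804), with differences of -0.69, -0.64 and -0.65. Against OT-1 replicate 1 alone, in the fit with a term for the spike-in split, its difference was -0.59 (adjusted p = 0.0777).

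Nlrp3 (1425412_at), the sensor of potassium efflux and many other danger signals, had values of -0.40, 0.004 and -0.02 in CD8aa Treg replicates 1, 2 and 4, against 0.26, 0.46 and -0.004 in OT-1 replicates 1, 2 and 3. The groups overlapped, since OT-1 replicate 3 lay between the CD8aa Treg arrays. The difference of -0.38 ± 0.17 did not pass (95% interval -0.82 to 0.06; adjusted p = 0.395).

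Pycard, which encodes the adaptor ASC, had 3 probe sets that did not agree. On 1417346_at the values were -0.65, -0.59 and -0.73 in CD8aa Treg replicates 1, 2 and 4, against 0.59, 2.12 and 1.98 in OT-1 replicates 1, 2 and 3. The groups did not overlap, and OT-1 replicate 1 lay well below the other OT-1 arrays. The difference of -2.22 ± 0.45, a 4.65-fold lower mean in CD8aa Tregs, did not pass (95% interval -3.37 to -1.06; adjusted p = 0.0779). It passed without OT-1 replicate 1 (-2.70, adjusted p = 0.000737), after quantile normalization of the arrays (-1.92, 0.0206), with array weights (-2.49, 0.0103), and when the 29526 probe sets spanning at least 0.1 were tested alone (-2.22, 0.0255). Against OT-1 replicate 1 alone, in the fit with the split, it differed by -1.24 (adjusted p = 0.00945). The 2 other Pycard probe sets, 1417347_at and 1446926_at, spanned 0.08 and 0.03 over the 6 arrays and differed by -0.02 ± 0.03 and 0.01 ± 0.02 (adjusted p = 0.818 and 0.884). Such flat probe sets occurred in 34.4% of all, and whether they detect the transcript cannot be read from centred values.

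Of the inflammatory caspases, Casp1 passed and Casp4 did not. Casp1 (1449265_at) had values of 0.71, 0.49 and 0.76 in CD8aa Treg replicates 1, 2 and 4, against -0.49, -0.74 and -0.82 in OT-1 replicates 1, 2 and 3. Every CD8aa Treg array lay above every OT-1 array, and the arrays of each group lay close together. The difference was 1.34 ± 0.12 (SE, n = 3 per group; 95% interval 1.03 to 1.64; limma adjusted p = 0.00903). Leaving out 1 array at a time gave differences of 1.27 to 1.43, and the call ended when OT-1 replicate 2 was left out (1.31, adjusted p = 0.0564). It passed under both other scalings that were tried, and against OT-1 replicate 1 alone, in the fit with the split, it differed by 1.14 (adjusted p = 0.0260).

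Casp4 (1449591_at) had values of 0.38, 0.51 and 0.29 in CD8aa Treg replicates 1, 2 and 4, against -1.48, -0.29 and -0.54 in OT-1 replicates 1, 2 and 3. The groups did not overlap, and OT-1 replicate 1 was the lowest array by a wide margin. The SD was 0.11 over the CD8aa Treg arrays and 0.63 over the OT-1 arrays. The difference of 1.16 ± 0.33 (2.24-fold) did not pass (95% interval 0.30 to 2.03; adjusted p = 0.178). It passed without OT-1 replicate 1 (0.81, adjusted p = 0.0257) and with array weights (0.99, 0.0478). Against OT-1 replicate 1 alone, in the fit with the split, it differed by 1.87 (adjusted p = 0.0109).

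**Figure D2:**
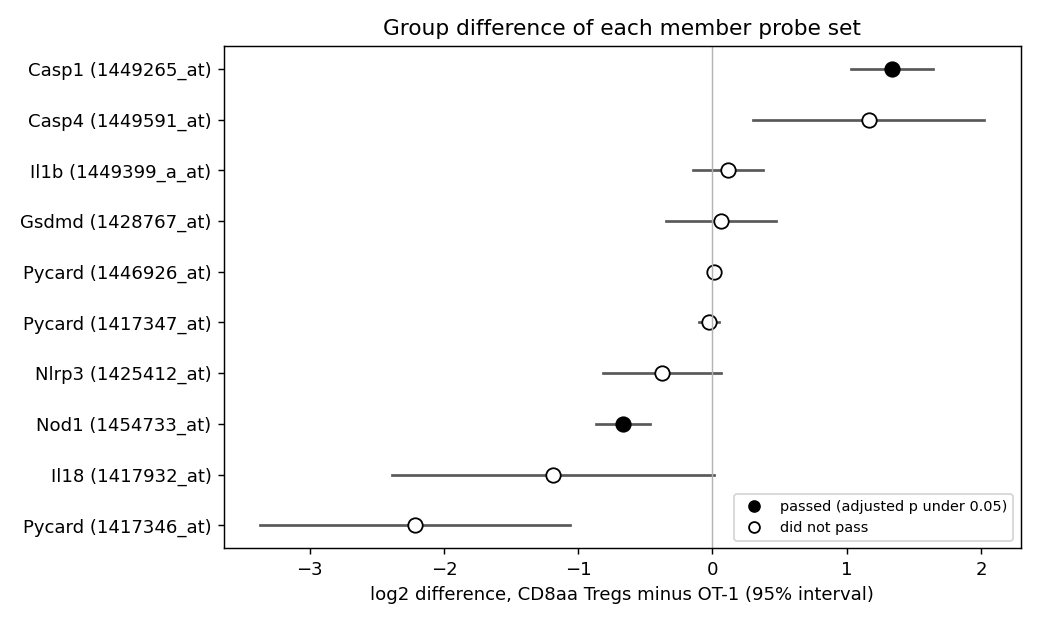
Log2 difference of each member probe set, CD8aa Tregs minus OT-1, with its 95% interval from limma; filled points passed at an adjusted p under 0.05 and open points did not. Casp1 at 1.34 and Nod1 at -0.67 are the filled points, and the widest intervals are those of Il18 and Pycard 1417346_at.

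Gsdmd, the pore-forming substrate of these caspases, showed no difference that passed. Its values (1428767_at) were -0.002, 0.19 and -0.25 in CD8aa Treg replicates 1, 2 and 4, against -0.32, 0.07 and 0.002 in OT-1 replicates 1, 2 and 3. The arrays of both groups were interleaved, and the difference was 0.06 ± 0.16 (95% interval -0.35 to 0.48; adjusted p = 0.942). The interval does not show equal expression, and its sign turned when CD8aa Treg replicate 2 or OT-1 replicate 1 was left out (-0.043 and -0.055).

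Neither cytokine matured by caspase-1 passed. Il1b (1449399_a_at) had values of -0.01, -0.002 and 0.31 in CD8aa Treg replicates 1, 2 and 4, against 0.002, -0.06 and 0.004 in OT-1 replicates 1, 2 and 3. CD8aa Treg replicate 4 alone stood off, and the other 5 arrays lay within 0.1 of 0. The difference was 0.12 ± 0.10 (95% interval -0.14 to 0.38; adjusted p = 0.752).

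Il18 (1417932_at) had values of -0.19, 0.005 and -0.43 in CD8aa Treg replicates 1, 2 and 4, against -0.005, 1.41 and 1.54 in OT-1 replicates 1, 2 and 3. OT-1 replicates 2 and 3 were high, while OT-1 replicate 1 lay among the CD8aa Treg arrays. The difference of -1.19 ± 0.46 did not pass (95% interval -2.39 to 0.01; adjusted p = 0.316). It was -1.68 without OT-1 replicate 1 (adjusted p = 0.0100), -1.54 with array weights (0.0447) and -0.20 against OT-1 replicate 1 alone, in the fit with the split (0.996). Once OT-1 replicate 1 is left out, group and spike-in side are the same division of the arrays and cannot be told apart.

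The profile of Il18 and Pycard 1417346_at, with OT-1 replicates 2 and 3 at least 1 above all 4 other arrays, was shared by 2 of the 113 probe sets of other pathway genes and by 1.15% of all probe sets. Those 2 belong to Naip5 and Nlrx1, and the pattern was chosen for description after the values were seen. Naip5 (1421525_a_at), which in the mouse senses bacterial flagellin ahead of NLRC4, had values of -0.18, -0.12 and -0.17 in CD8aa Treg replicates 1, 2 and 4, against 0.12, 2.51 and 2.42 in OT-1 replicates 1, 2 and 3 (difference -1.84 ± 0.71; adjusted p = 0.309). Nlrx1 (1433661_at), a mitochondrial NLR protein, had values of -0.01, -0.13 and -0.40 in CD8aa Treg replicates 1, 2 and 4, against 0.01, 1.42 and 1.16 in OT-1 replicates 1, 2 and 3 (difference -1.04 ± 0.41; adjusted p = 0.317). Of 20 measured myeloid marker genes, Cd68 and Ms4a6d were the 2 that had a probe set with this profile. Cd68 had values of -0.71 to -0.48 in CD8aa Tregs and 0.48, 3.34 and 3.44 in OT-1 replicates 1, 2 and 3. The Ms4a6d probe set with this profile was 1419598_at, with values of 1.47, 2.58 and 2.56 in OT-1 replicates 1, 2 and 3. Ms4a6d 1419599_s_at did not have it, being high on all OT-1 arrays (2.06, 2.53 and 2.86), and 1449539_at spanned 0.22. Probe sets of other markers, among them Lyz1, Lyz2 and Clec7a, were lowest on OT-1 replicates 2 and 3 (Lyz2 at -1.91 and -2.82). The spike-in controls separated the same 2 arrays, and neither their part nor that of the myeloid markers in these profiles was tested.

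OT-1 replicate 1, the array with the raised myeloid markers, was not high for Il1b (0.002) and lay at 0.26 for Nlrp3, between OT-1 replicates 2 (0.46) and 3 (-0.004). None of the 10 member probe sets had OT-1 replicate 1 at least 1 above all other arrays. Only 0.224% of all probe sets did, so this count is no result about the members. In the lists of other pathway genes, Il1rn encodes the secreted antagonist of the IL-1 receptor. Its probe set 1451798_at stood at 1.84 on OT-1 replicate 1 and between -0.04 and 0.01 on the other arrays. The other Il1rn probe sets did not share this. Of them, 1423017_a_at stood at 0.08 on that array and 0.10 on CD8aa Treg replicate 4, and 1425663_at spanned 0.09. Mefv, which encodes the sensor pyrin, stood at 0.52 on OT-1 replicate 1 and between -0.01 and 0.01 elsewhere. The myeloid markers raised on OT-1 replicate 1, of 9 of 20 measured genes, are high on the same array as these Il1rn and Mefv values. Their part in those values was not tested.

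**Figure D3:**
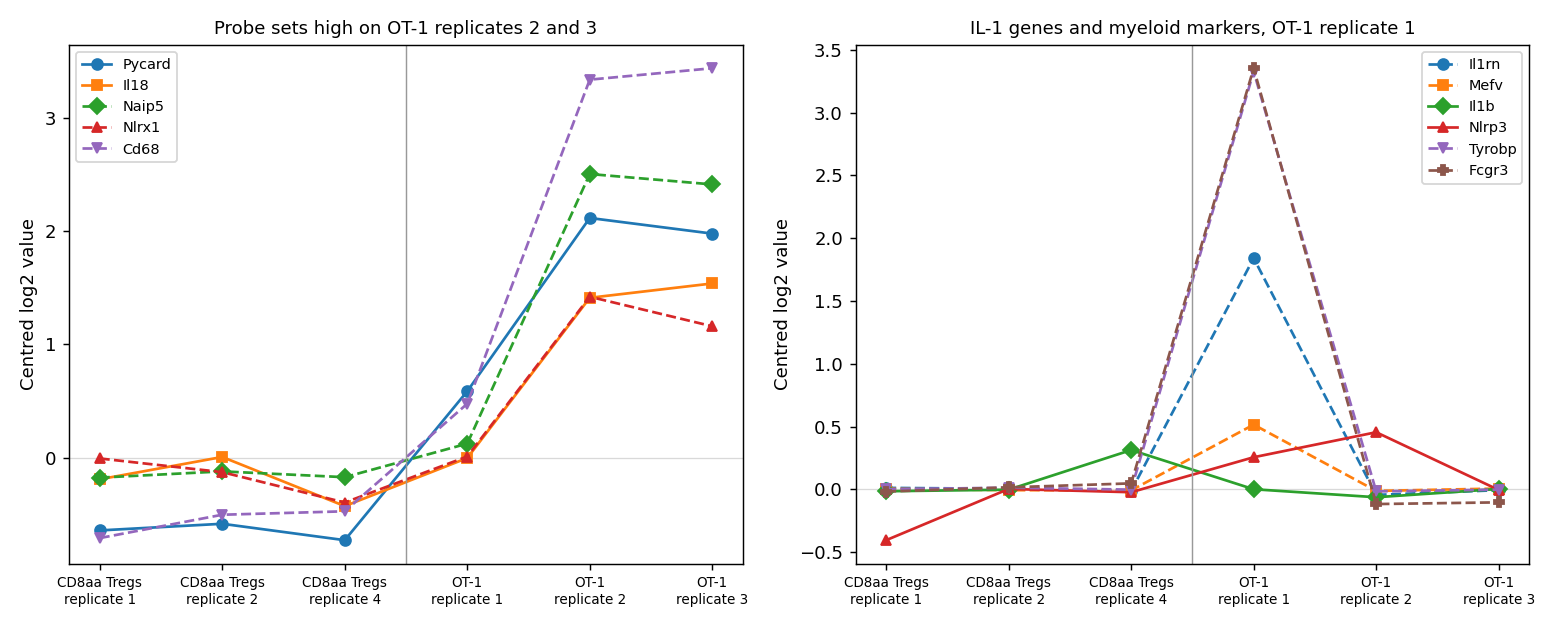
Centred log2 value (vertical axis) on each array, CD8aa Tregs left of OT-1; solid lines are members, dashed lines are other pathway genes and myeloid markers. In the left panel Pycard 1417346_at, Il18, Naip5, Nlrx1 and Cd68 are high on OT-1 replicates 2 and 3. In the right panel Il1rn 1451798_at, Mefv, Tyrobp and Fcgr3 are high on OT-1 replicate 1, where Il1b stands at 0.002 and Nlrp3 at 0.26.

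Beyond the members, 4 lists held 63 other genes of the pathway, of which 52 were measured. Of these, 2 had a probe set that was higher in CD8aa Tregs, 3 had one that was lower, and 47 had none that passed. That is 9.62% of the genes, against 6.79% of all genes with a probe set that passed, and the median over the 113 probe sets was -0.01. The count without OT-1 replicate 1 was 14 genes (6 higher, 8 lower), and it was 0 without CD8aa Treg replicate 4, 1 without CD8aa Treg replicate 1, 3 without CD8aa Treg replicate 2, and 2 without OT-1 replicate 2 or without OT-1 replicate 3. In these fits the genes with an unadjusted limma p under 0.05 numbered 27, 17, 18, 20, 20 and 15, in the same order, against 21 over all 6 arrays. Over all probe sets 4773, 1013, 914, 901, 811 and 904 passed in these fits, against 1827 over all 6 arrays. The count thus also moved outside these lists, and its change is no result about them.

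Among 11 other sensors, Nlrc3, an NLR protein that restrains T cell and innate signalling, was the 1 gene that passed. Its probe set 1458148_at had values of 0.35, 0.58 and 0.50 in CD8aa Treg replicates 1, 2 and 4, against -0.35, -0.60 and -0.84 in OT-1 replicates 1, 2 and 3. The difference was 1.07 ± 0.14 (adjusted p = 0.0271), while its other probe set differed by 0.11 ± 0.18 (adjusted p = 0.902). Aim2, the sensor of cytosolic DNA, had values of 0.69, 0.31 and 0.36 in CD8aa Treg replicates 1, 2 and 4, against -0.31, -0.75 and -0.90 in OT-1 replicates 1, 2 and 3. Its groups did not overlap, but its difference of 1.11 ± 0.20 did not pass (adjusted p = 0.058). Nlrc3 did not pass in 5 of the 6 fits with 1 array left out (limma adjusted p up to 0.116, when OT-1 replicate 2 was missing). Against OT-1 replicate 1 alone, in the fit with the split, Nlrc3 1458148_at differed by 0.83.

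Among 14 genes of NOD signalling, Birc2, which encodes the ubiquitin ligase cIAP1 of this pathway, was higher in CD8aa Tregs by 0.81 ± 0.08 (adjusted p = 0.0123). Its values were 0.29, 0.49 and 0.44 in CD8aa Treg replicates 1, 2 and 4, against -0.29, -0.50 and -0.41 in OT-1 replicates 1, 2 and 3. It did not pass in 4 of the 6 fits with 1 array left out (highest limma adjusted p = 0.0612, without OT-1 replicate 3). Against OT-1 replicate 1 alone, in the fit with the split, Birc2 differed by 0.69. Ripk2, the kinase that NOD1 acts through, was not analysed here.

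Among 14 genes of IL-1 and IL-18 ligands, receptors and signalling, 0 were higher and 2 were lower in CD8aa Tregs. Irak2, a kinase downstream of the IL-1 receptor family, had values of -0.79, -0.75 and -0.80 in CD8aa Treg replicates 1, 2 and 4, against 0.75, 1.30 and 1.58 in OT-1 replicates 1, 2 and 3. It was 3.97-fold lower (log2 difference -1.99 ± 0.22; limma adjusted p = 0.0169). Il18rap, the signalling chain of the IL-18 receptor, was lower by -0.39 ± 0.06 on probe set 1456545_at (adjusted p = 0.0488) and differed by -0.82 ± 0.18 on 1421291_at (adjusted p = 0.0974), and the groups overlapped on neither. Il18r1, its ligand-binding chain, differed by 0.34 ± 0.17 (adjusted p = 0.446). Both probe sets of Il1r1, the IL-1 receptor, lay between -0.04 and 0.09 on all 6 arrays, and Il1rl1 was not analysed here. Irak2 did not pass in 4 of the 6 fits with 1 array left out (up to a limma adjusted p of 0.0874, without OT-1 replicate 2). Il18rap 1456545_at did not in 5 (highest 0.153, without OT-1 replicate 3). Against OT-1 replicate 1 alone, in the fit with the split, Irak2 differed by -1.53 and Il18rap 1456545_at by -0.31.

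Among 13 genes of inflammasome activation, other caspases and pore formation, Gbp2, an interferon-induced GTPase that opens the way for cytosolic sensing of bacteria, was lower in CD8aa Tregs. Its probe set 1418240_at had values of -0.46, -0.40 and -0.56 in CD8aa Treg replicates 1, 2 and 4, against 0.89, 0.40 and 0.62 in OT-1 replicates 1, 2 and 3. The differences were -1.11 ± 0.14 on that probe set and -1.15 ± 0.17 on 1435906_x_at (adjusted p = 0.0219 and 0.0342). Txnip, a partner of NLRP3, differed by 0.06 ± 0.05 and -0.34 ± 0.19 on its probe sets (adjusted p = 0.754 and 0.536). The Gbp2 probe sets did not pass in 4 and 5 of the 6 fits with 1 array left out. Their highest limma adjusted p was 0.0921, without CD8aa Treg replicate 1, and 0.116, without CD8aa Treg replicate 2. Against OT-1 replicate 1 alone, in the fit with the split, they differed by -1.37 and -1.47. Near-identical relatives of Gbp2 may share its probes.

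**Figure D4:**
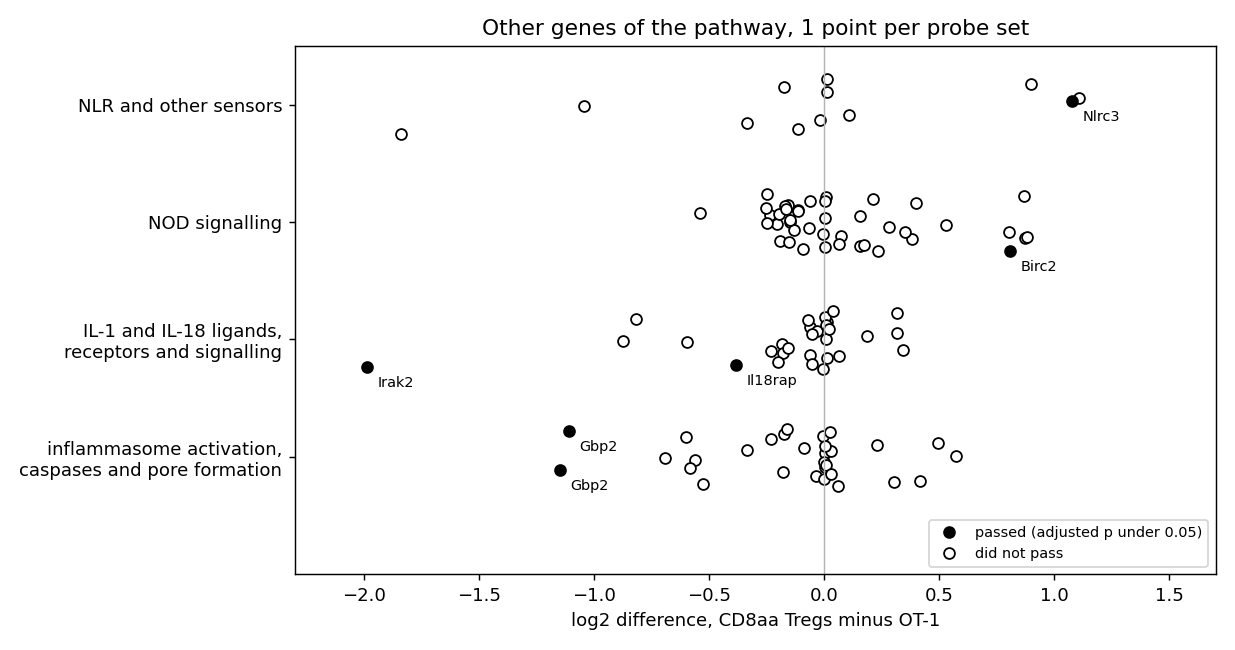
Log2 difference, CD8aa Tregs minus OT-1 (horizontal axis), of each of 113 probe sets of other pathway genes, by list; filled points passed at an adjusted p under 0.05 and carry the gene name. Nlrc3 and Birc2 are the filled points above 0, and Irak2, Il18rap and Gbp2 those below 0.

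The probe sets whose profile over the 6 arrays lay nearest to that of Casp1, the member with the smallest adjusted p, were those of Supt16, Slc37a3 and Tbc1d4. Their Euclidean distances, after each probe set was centred on its mean, were 0.20, 0.20 and 0.23 on the log2 scale over 6 arrays. Their differences were 1.33, 1.32 and 1.29, close to that of Casp1 because nearness over 2 groups of 3 arrays requires it.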

How the data were processed

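RNA of 6 cultures was extracted with an RNeasy kit and amplified and biotin-labelled with a Nugen Ovation kit, per the labels' protocols. The values the authors deposited were made with RMA, per the submitters' processing notes, with no version given, and were used as log2 values. The log base is not given in the sources used here; one probe set ranged over 11.37 units, and natural logs of a 16-bit scanner could reach no more than 11.09. The deposited log2 values had been centred, with every median within 5.0e-07 of 0, a step no source mentions. With 3 arrays per group, their number limits the precision.

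The 64 array controls were left out. Among the other 45037 probe sets, the platform annotation gave 34945 a single symbol, gave 932 several and did not list 9160; of the 34945, 34741 matched a RefSeq table (GRCm38.p6) by Entrez identifier, and 0 symbols changed. Groups came from the sample titles. Each probe set was fitted in R 4.3.3 with limma 3.58.1 (lmFit, eBayes, two-sided) and adjusted by Benjamini-Hochberg over all 45037. Differences are CD8aa Tregs minus OT-1. The fit was tested on simulated data with the spread of each probe set. Values were drawn independently for each array with equal spread in both groups, so the distance of OT-1 replicate 1 from the others was not simulated. Differences were added only to probe sets spanning at least 0.1. Rates on the real arrays may therefore be other than these. The fit called 36 of 100 differences of 1 on the log2 scale and 63 of 100 differences of 2. Of 44837 probe sets without a difference it called 9. Not passing therefore does not show that a difference is absent. The tables were made with Python 3.11.15, pandas 2.3.3 and numpy 2.4.6, and the figures with matplotlib 3.10.9.

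The members and lists were chosen with earlier results of these data known. All members were named with every probe set. From each pathway list, up to 4 genes that passed were named by size, plus Ripk2, Il18r1, Il18rap, Il1r1, Il1rl1, Aim2 and Txnip in any case, and the 3 probe sets nearest to the member with the smallest adjusted p. The alternatives left out each array in turn, blocked on the replicate number, or used array weights, a robust variance prior, 2 other scalings, the mean over a gene's probe sets, filters on probe sets, the spike-in split as a term, and a fold threshold. Array weights were estimated gene by gene, since the default estimate stopped before convergence; this was chosen after seeing the data.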

Additional observations from a re-analysis of the deposited data

How the results depend on the processing

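The number of member probe sets that passed (2 of 10) became 5 with array weights, 1 when a difference of at least 1 was also required, and 0 to 5 over the 6 fits with 1 array left out (0 without OT-1 replicate 2, where 4 had an unadjusted p under 0.05 in limma; 5 without OT-1 replicate 1). It was 2 or 3 under the other alternatives except the replicate block. Over all probe sets, 1827 passed in the fit over 6 arrays, 4773 without OT-1 replicate 1, 811 to 1013 without any of the other arrays, 4584 with array weights, 2962 of 29526 when only those spanning at least 0.1 were tested, 229 with the replicate block, and 1044 with the fold threshold. Casp1 ranged from 1.27 to 1.43 with 1 array left out. Nod1 ranged from -0.71 to -0.59 there and was -0.59 with a term for the spike-in split, a fit whose OT-1 side is OT-1 replicate 1 alone. Casp4 ranged from 0.81 to 1.40, and was 0.99 with array weights and 1.87 with the split. Pycard 1417346_at ranged from -2.70 to -1.94, and was -2.49 with array weights, -2.22 with the filter on span, -1.92 after quantile normalization and -1.24 with the split. Il18 ranged from -1.68 to -0.91 and was -1.54 with array weights. Gsdmd ranged from -0.055 to 0.18, with -0.043 without CD8aa Treg replicate 2. With the split, the flat Pycard probe sets 1417347_at and 1446926_at turned sign, to 0.0094 and -0.0019. The pathway genes that passed (5) became 10 with the filter on span, 9 with the split and 0 to 14 with 1 array left out. The cause of these changes was not tested.

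The groups share only the replicate numbers 1 and 2, and nothing in the labels says that a number pairs samples. Deviations from the group means correlated at -0.03 for number 1 and 0.21 for number 2. Pairs of arrays with unlike numbers reached the same size, from -0.18 to 0.21. With the replicate number as a block, CD8aa Treg replicate 4 and OT-1 replicate 3 have no partner and add nothing to the difference. It then rests on replicates 1 and 2 of each group, so lost calls cannot be read as an effect of pairing. In that fit 0 member probe sets and 0 pathway genes passed in limma (5 and 18 at an unadjusted p under 0.05), and 229 of all 45037 probe sets passed. Casp1 was at 1.21 (limma adjusted p = 0.0679) and Nod1 at -0.58 (0.163).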

Other observations

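Casp1 and Casp4 are neighbours on chromosome 9 in the gene order of GRCm38.p6. The 3 protein-coding genes before them and the 4 after them were measured by 12 probe sets, with differences of 0.0024 to 0.37. Of the 12, 0 passed in limma, against 4.06% of all probe sets, so the count is no result about these genes. Casp12, the caspase gene on the far side of Casp4, spanned 0.02 and 0.03 on its probe sets. Those of Pdgfd and Ddi1 also spanned under 0.1. The largest of the 12 differences was that of Kbtbd3 (0.37 ± 0.15, limma adjusted p = 0.348). Msantd4 had the smallest adjusted p (0.26 ± 0.05, limma adjusted p = 0.0760). The groups overlapped on neither of these 2. These genes were looked at after the values of Casp1 and Casp4 were seen.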
